A study of Mus musculus with 6 samples.

Results

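The genes described here act in mitosis and chromosome segregation. They were taken by symbol from a table of 16244 genes measured in 6 RNA-seq libraries, and all 50 members were found. The 3 WT and 3 N275D libraries came from naive CD4+ T cells cultured for 3 days with antibodies to CD3 and CD28 under pathogenic Th17 conditions. The study describes that condition with IL-6, IL-1β and IL-23, and its methods add TGF-β and antibodies to IL-4 and IFN-γ. N275D stands for a knockin that changes 1 residue of a protein. Both genotypes are on a C57BL/6 background. The study lists the WT mice as C57BL/6NJ and gives no substrain for the knockin. By the methods, WT mice were purchased and the knockin mice came from another source. Littermate controls are named only for transfer colitis, so an effect of source or substrain could not be told apart from genotype. The labels give spleen as the tissue. The methods give a general age range for the mice of the study and say that both sexes were used, but no age or sex for these libraries alone. Neither the labels nor the methods say whether the mutation was heterozygous or homozygous in these libraries. The members were grouped by role into mitotic cyclins and CDK1 (4 genes), mitotic kinases (3), the chromosomal passenger complex (4), the spindle assembly checkpoint (5), anaphase onset (7), centromere and kinetochore (8), condensin and chromosome structure (7), spindle assembly (7) and cytokinesis (5).

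Chromosome segregation turns one set of replicated chromosomes into a set for each daughter cell. Cyclin A and cyclin B with the kinase CDK1 drive entry into mitosis, condensin compacts the chromosomes, and kinetochores built on the centromeres attach them to spindle microtubules. The spindle assembly checkpoint holds back the anaphase promoting complex (APC/C) until every kinetochore is attached, after which separase cuts cohesin, the sister chromatids part and cytokinesis divides the cell. Activated T cells cycle fast, so these transcripts are abundant in T cell cultures.

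Library depth ran from 17659035 to 18510878 reads assigned to genes, and every member had a mean of at least 344 normalized reads, so that all 50 passed the minimum mean of 10. Normalized reads are the authors' reads per gene, each multiplied by 1 factor per library. Markers of the labelled cell type were present in every library. *Cd4* had 8901, 9007 and 9520.1 normalized reads in WT and 7621, 7577 and 7575 in N275D cells, and *Il17a*, the cytokine that Th17 cells are named for, had 27430.3, 27888 and 27166 normalized reads in the WT libraries and 31814, 32673 and 31969.7 in the N275D libraries. The summed levels of 5 B cell markers ranged from 150 to 160 normalized reads in WT and from 214 to 273 in N275D, with *Ms4a1* near 0, and 3 of them were called higher. For 4 CD8 T and NK cell markers the sums were 173 to 204 and 256 to 272, with 2 called higher and *Klrb1c* at or near 0. Among them *Cd8a* was not called, with 25.2, 34.3 and 38.3 normalized reads in WT and 29.9, 28.1 and 24.7 in N275D cells. For the gamma delta T cell markers *Sox13* and *Blk* the sums were 31.3 to 41.3 and 58.3 to 65.9, with both called higher. The gamma delta receptor genes *Trdc* and *Tcrg-C1* were not among the genes measured. For 5 myeloid markers the sums were 81.8 to 92.8 and 82.0 to 106, with 1 called lower and *Csf1r* near 0. The markers *Ms4a1*, *Klrb1c*, *Lyz2*, *Csf1r* and *Itgam* had means under 10 and were not tested. Of all genes tested, 24.7% were called higher and 26.1% lower. The part of other cell types in the results below was not tested.

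Many mitotic genes carry a CCAAT box, which NF-Y binds, and a cell cycle homology region (CHR) near the start site, which the MuvB complex reads. RefSeq promoters of GRCm38.p6, from 250 bases before to 50 after the annotated start, were listed for 43 members. The stretches below are shown because the elements are a feature that the choice of members did not use. The first 4 belong to genes that were lower in N275D cells, the next 3 to genes that were not called and the last to *Cenpf*, which was higher. All are in GRCm38.p6, 5′ to 3′ on the strand of the gene, end before the outermost annotated start of the gene, and show in capitals the CCAAT box on either strand and the CHR letters, which are TTTGAA on either strand and a second form, TTCGAA, that reads alike on both.
Cdc20, chr4:118437344-118437443, minus strand: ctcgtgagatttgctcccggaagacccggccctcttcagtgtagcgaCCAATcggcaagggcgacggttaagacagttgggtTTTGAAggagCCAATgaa
Cdk1, chr10:69352913-69353012, minus strand: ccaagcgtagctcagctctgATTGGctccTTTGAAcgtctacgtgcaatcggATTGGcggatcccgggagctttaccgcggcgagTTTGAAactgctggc
Ube2c, chr2:164769739-164769928, plus strand: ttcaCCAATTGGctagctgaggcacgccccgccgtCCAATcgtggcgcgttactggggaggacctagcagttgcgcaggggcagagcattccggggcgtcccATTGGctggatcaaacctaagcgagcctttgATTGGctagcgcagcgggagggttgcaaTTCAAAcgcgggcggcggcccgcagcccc
Top2a, chr11:99024200-99024419, minus strand: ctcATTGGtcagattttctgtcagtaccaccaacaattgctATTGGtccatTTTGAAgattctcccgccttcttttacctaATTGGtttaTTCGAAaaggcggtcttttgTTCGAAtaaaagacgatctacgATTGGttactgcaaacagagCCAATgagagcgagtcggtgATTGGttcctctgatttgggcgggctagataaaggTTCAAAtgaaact
Ckap2l, chr2:129297229-129297342, minus strand: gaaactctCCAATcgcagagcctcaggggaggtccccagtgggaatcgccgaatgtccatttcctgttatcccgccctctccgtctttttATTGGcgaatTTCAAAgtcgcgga
Smc2, chr4:52439071-52439220, plus strand: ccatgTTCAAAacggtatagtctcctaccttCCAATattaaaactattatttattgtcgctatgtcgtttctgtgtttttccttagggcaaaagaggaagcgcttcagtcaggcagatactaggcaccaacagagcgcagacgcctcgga
Fbxo5, chr10:5805466-5805565, minus strand: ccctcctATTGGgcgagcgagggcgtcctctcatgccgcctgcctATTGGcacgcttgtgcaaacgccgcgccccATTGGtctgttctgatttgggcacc
Cenpf, chr1:189688108-189688236, minus strand: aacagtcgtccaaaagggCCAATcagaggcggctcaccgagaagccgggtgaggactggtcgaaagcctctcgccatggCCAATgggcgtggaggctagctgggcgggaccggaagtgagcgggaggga
*Ube2c* and *Top2a* hold 5 and 6 CCAAT boxes in these stretches, and in *Ube2c* a pair of them overlap head to head. *Cdk1* holds 2 CCAAT boxes and 2 CHR letters, *Cdc20* 2 and 1, and *Ckap2l* 2 and 1. The stretches of *Fbxo5* and *Cenpf* show no CHR letters because they end before the start. Each gene had a CHR match just past that end, at 3 and 2 bases from the annotated start. Over the whole window, 32 of 43 member promoters (74.4%) held CCAAT on either strand, against 39.8% of the 9582 promoters of genes tested. The CHR letters stood in 33 of 43 (76.7%), against 14.1%. Both elements were in 29 (67.4%), against 6.41%. Of 44 CHR matches most lay close to the start, and 30 members had one within 50 bases of it, on either side. CCAAT boxes lay upstream, 71 of 74 before the start and 58 of them within 150 bases. Among members lower in N275D cells, 18 of 22 promoters held both elements, among those not called 10 of 19, and among those called higher 1 of 2. The CHR letters, with or without CCAAT, stood in 18 of 22, 14 of 19 and 1 of 2. A match is only a run of letters, and binding was not measured.

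**Figure D1:**
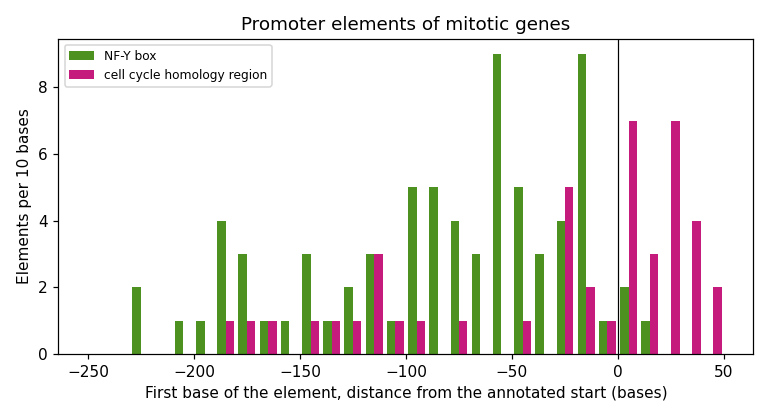
Number of CCAAT (NF-Y) boxes and of cell cycle homology regions per 10 bases in the promoters of 43 mitotic genes, by the distance of the first base from the annotated start in bases. CCAAT boxes lie mainly within 150 bases upstream, and cell cycle homology regions gather on both sides of the start.

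Mitotic transcripts were on the whole slightly lower in N275D than in WT Th17 cells. By limma on log2(normalized reads + 1), fitted on all 11908 genes tested, 27 of 50 members fell and 2 rose at an adjusted p under 0.05 (Benjamini-Hochberg over all genes tested). In the same fit 26.1% of all genes tested were called lower and 24.7% higher, 50.9% in all. The median log2 fold change of the members was -0.12, against -0.0026 for all genes tested, and 44 members lay below 0, against 50.4% of all genes tested. No member reached 2-fold, and 3.59% of all genes tested were both called and changed at least 2-fold. By limma 28 members had an unadjusted p under 0.05 on the lower side and 2 on the higher side. The share of all genes tested at that unadjusted threshold was not taken, so these counts are not a result about the members. The change furthest from 0 was that of *Ccna2*, whose mean fell by 23.7%. All 3 N275D libraries lay below all 3 WT libraries in 27 members and above them in 3, against 29.6% and 28.1% of all genes tested. In bulk RNA, fewer cells in mitosis and less RNA in each such cell cannot be told apart. For 1 gene at a time, exact permutation of 3 against 3 libraries reaches a two-sided p of 0.1 at best. A figure legend of the study that covers these RNA-seq data speaks of 3 biological replicates per group. It does not say whether these were separate mice or separate cultures, so the p-values measure the spread between these libraries.

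One WT library bears on this count, and it stood apart over genes in general, not in the members alone. The mean chi-square per gene against counting noise was 5.13 and 5.68 for WT replicate 3 with WT replicates 1 and 2. It was 1.86 between WT replicates 1 and 2, and 1.61 to 2.01 between N275D libraries. WT replicate 3 was the lowest WT library in 34 of the 50 members, and the summed members made up 0.682% of its normalized reads, against 0.723% and 0.725% in WT replicates 1 and 2 and 0.642% to 0.650% in the N275D libraries. Without WT replicate 3 the median was -0.17, 35 members were called lower and 2 higher, and 40 did not overlap on the lower side, against 27.6% of all genes tested called lower, 26% called higher and 34.7% without overlap on the lower side in the same libraries. The log2 level of WT replicate 3, minus the mean of the other WT libraries, had a median of -0.19 over the 21 members not called and of -0.014 over the 27 called lower. WT replicate 3 is one of the libraries that decide the call, so this contrast is partly set by the call itself. The longest coding transcripts of the members not called and called lower had median lengths of 3526 and 2965 bases and a median GC content of 43.0% and 47.8%. Over the 34 members in which WT replicate 3 was the lowest WT library these medians were 3577 bases and 43.7%. Over the other 16 they were 2195 bases and 52.0%. The part of length or GC content was not tested. Under quantile normalization 37 members lay below 0, and 21 were called lower and 2 higher (25.7% and 23% of all genes tested), since *Ccnb1*, *Aurka*, *Cenpa*, *Mki67*, *Tpx2* and *Racgap1* were no longer called.

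**Figure D2:**
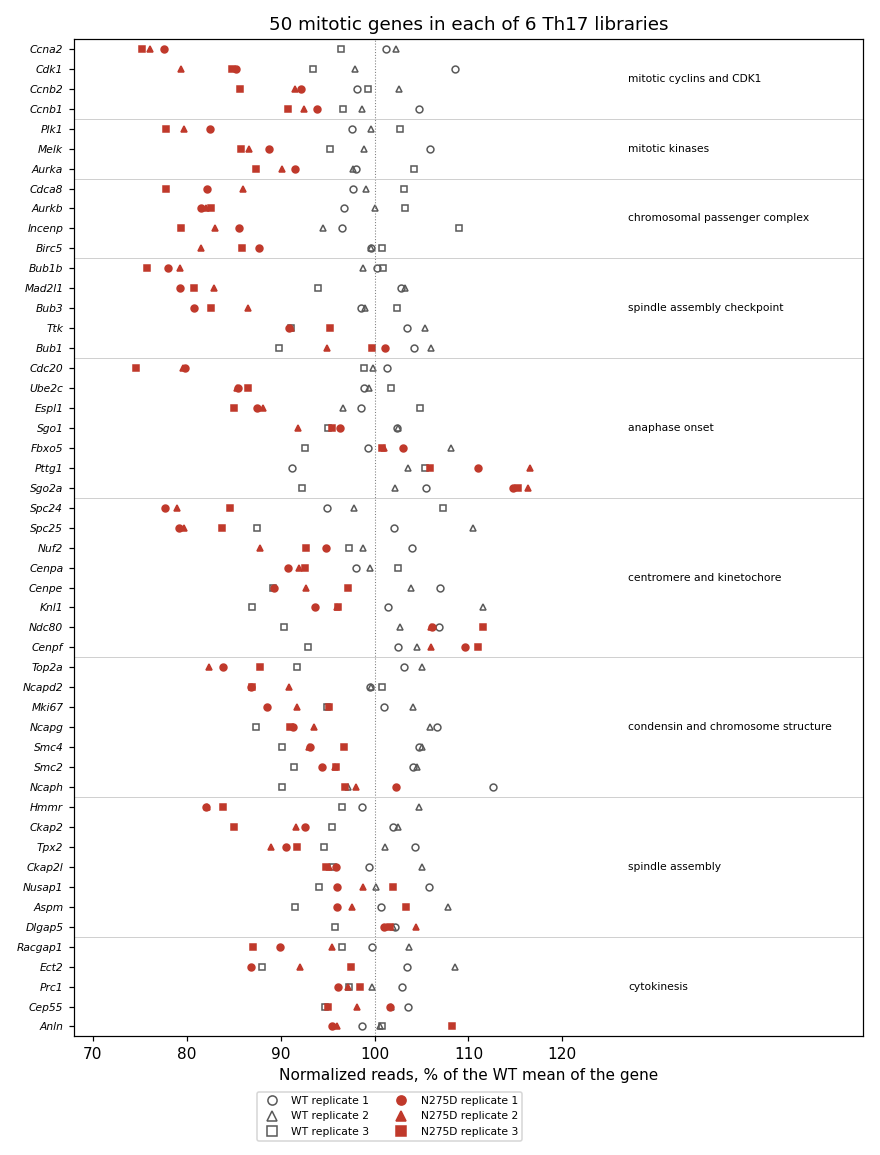
Normalized reads of each of the 50 mitotic genes in each library, in percent of the WT mean of that gene, with WT as open and N275D as filled symbols and the replicate number by shape. N275D symbols lie left of WT symbols in 27 genes, and WT replicate 3 (open squares) is the lowest WT library in 34.

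Cyclins and CDK1 fell in N275D cells, with 4 of 4 members called lower and no overlap between genotypes. *Ccna2* (GRCm38 chromosome 3, 36564865 to 36573038) encodes cyclin A2, which acts from S phase until early mitosis. It had 4440.0, 4487 and 4227 normalized reads in WT and 3403, 3335 and 3298 in N275D cells, so that the highest N275D library lay well under the lowest WT library. Its log2 fold change was -0.39 (SE 0.04, limma adjusted p = 4.54e-07). *Ccnb1*, the cyclin of the main mitotic CDK1 complex, had 3626, 3415 and 3347 normalized reads in the WT libraries and 3251, 3201 and 3145 in the N275D libraries. This was the smallest change of the group, -0.11 (SE 0.04, limma adjusted p = 0.0276), and the call was lost in each fit without WT replicate 1 or any 1 N275D library, where the adjusted p ran from 0.0504 to 0.146. The ratio of *Ccna2* to *Ccnb1* reads was 1.22 to 1.31 in WT libraries and 1.04 to 1.05 in N275D libraries. *Cdk1* itself and *Ccnb2*, the other B-type cyclin, had log2 fold changes of -0.26 and -0.16. *Ccnb2* was not called without N275D replicate 3 (adjusted p = 0.0762 from limma).

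All 3 mitotic kinases were lower. *Plk1*, the kinase that drives centrosome maturation and the removal of cohesin from chromosome arms, had 2912, 2973 and 3065 normalized reads in WT and 2461, 2379 and 2322 in N275D cells. Here too the genotypes stood clear of each other, with a log2 fold change of -0.32 (SE 0.04, limma adjusted p = 7.08e-06). *Aurka*, whose product matures the spindle poles, changed less, with 1665, 1660.4 and 1770.0 normalized reads in the WT libraries and 1555, 1532 and 1484 in the N275D libraries, a log2 fold change of -0.16 (SE 0.04, limma adjusted p = 0.00819). *Melk*, a kinase of dividing cells, had a log2 fold change of -0.20.

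The chromosomal passenger complex, which corrects faulty attachments and then marks the site of division, fell as a whole. Its 4 genes were all called lower, with log2 fold changes from -0.29 to -0.23. *Cdca8*, which encodes borealin, had 2499, 2533 and 2637 normalized reads in WT and 2100.4, 2198 and 1989 in N275D cells (log2 fold change -0.29, SE 0.04, limma adjusted p = 6.35e-05). *Birc5*, or survivin, had 2247, 2246 and 2275 normalized reads in the WT libraries and 1979.6, 1839.9 and 1939 in the N275D libraries, and a log2 fold change of -0.23 (SE 0.04, limma adjusted p = 0.000235). *Incenp*, the scaffold and the most abundant of them in reads, had 4048, 3964 and 4574 normalized reads in WT and 3589.9, 3485 and 3333 in N275D cells. WT replicate 3 was the high library here, opposite to its place in most members, and without it the log2 fold change was -0.21 in place of -0.27. *Aurkb*, the kinase of the complex, had a log2 fold change of -0.28.

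In the checkpoint, *Bub1b*, *Mad2l1* and *Bub3* fell, whereas *Bub1* and *Ttk* were not called. *Bub1b* encodes BUBR1, a part of the inhibitor that binds CDC20. It had 3127, 3081 and 3147 normalized reads in the WT libraries and 2433, 2471 and 2361 in the N275D libraries, without overlap, and its log2 fold change was -0.36 (SE 0.04, limma adjusted p = 1.07e-06). *Bub3*, the highest checkpoint gene in reads, partners both BUB1 and BUBR1 and had 3519.5, 3536 and 3657 normalized reads in WT and 2883, 3088 and 2948 in N275D cells (log2 fold change -0.26, SE 0.04, limma adjusted p = 4.3e-05). *Mad2l1*, which encodes MAD2, had a log2 fold change of -0.30. *Bub1*, the kinase that recruits the other checkpoint proteins to kinetochores, had 1297, 1319 and 1119 normalized reads in the WT libraries and 1259, 1182 and 1241 in the N275D libraries. WT replicates 1 and 2 lay above all N275D libraries and WT replicate 3 below them, and the 95% interval of its log2 fold change ran from -0.14 to 0.11. Within each library the ratio of *Bub1b* to *Bub1* reads was 2.335 to 2.813 in WT and 1.902 to 2.091 in N275D. *Ttk*, which encodes MPS1, the kinase that starts the signal, had 539, 549 and 474 normalized reads in WT and 473, 475 and 496 in N275D cells. The overlap again came from WT replicate 3, without which *Ttk* was called lower (adjusted p = 0.0162 from limma).

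Genes of anaphase onset split by direction. *Cdc20*, the APC/C activator that the checkpoint restrains, was the highest of all members per kilobase of exon, at 2219 ± 28.1 (SD, n = 3) normalized reads per kilobase in WT. It had 4201, 4136 and 4097 normalized reads in the WT libraries and 3310.4, 3302 and 3091 in the N275D libraries, a log2 fold change of -0.36 (SE 0.04, limma adjusted p = 1.59e-06). *Ube2c*, the ubiquitin-conjugating enzyme that works with the APC/C, and *Espl1*, which encodes separase, also fell, with log2 fold changes of -0.22 and -0.20. *Sgo2a*, a shugoshin that shields centromeric cohesin, went the other way, with 588, 569.9 and 515 normalized reads in WT and 639.9, 649 and 643 in N275D cells. Every N275D library exceeded every WT library, and the log2 fold change was 0.21 (SE 0.06, limma adjusted p = 0.00869). Its relative *Sgo1*, which protects cohesin in mitosis, had 760.0, 761 and 705 normalized reads in the WT libraries and 715, 681 and 708 in the N275D libraries and was not called (adjusted p = 0.231 from limma). The ratio of *Sgo2a* to *Sgo1* was 0.730 to 0.774 in WT and 0.895 to 0.953 in N275D libraries. *Pttg1*, which encodes securin, the inhibitor of separase, had 297, 337 and 343 normalized reads in WT and 361, 379 and 345 in N275D cells. The N275D libraries lay above the WT libraries, narrowly for the closest pair, and the log2 fold change of 0.15 missed the threshold (adjusted p = 0.0965 from limma, 95% interval -0.0039 to 0.31). Without WT replicate 3 it was called higher (0.19, adjusted p = 0.0364 from limma), and without WT replicate 1 it was 0.089 (adjusted p = 0.364 from limma). *Fbxo5*, or EMI1, an inhibitor of the APC/C, had 733, 798 and 684 normalized reads in the WT libraries and 761, 745 and 744 in the N275D libraries, with N275D values inside the WT range.

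Within the kinetochore the NDC80 complex, the microtubule hook, gave different values for its 4 subunits. *Spc24* and *Spc25* fell, and *Nuf2* and *Ndc80* were not called. *Spc24* had 899, 926 and 1016 normalized reads in WT and 736, 747 and 801 in N275D cells, a log2 fold change of -0.31 (SE 0.06, limma adjusted p = 0.000297), and *Spc25* one of -0.30. *Ndc80* had 1064, 1022 and 899.8 normalized reads in the WT libraries and 1056, 1055 and 1110.0 in the N275D libraries, where WT replicate 1 lay among the N275D libraries (log2 fold change 0.11, adjusted p = 0.125 from limma). Without WT replicate 1 *Ndc80* was called higher (0.16, adjusted p = 0.0458 from limma), and without WT replicate 3 its log2 fold change was 0.042 (adjusted p = 0.469 from limma). *Nuf2* had 957, 909 and 895 normalized reads in WT and 873, 808 and 853 in N275D cells, so that the genotypes did not overlap, but the adjusted p from limma was 0.0585. The reads of *Spc24* over those of *Ndc80* gave ratios of 0.845 to 1.13 in WT libraries and 0.697 to 0.722 in N275D libraries, and *Spc25* over *Ndc80* gave 0.708 to 0.798 and 0.553 to 0.557. *Nuf2* over *Ndc80* gave 0.889 to 0.9945 and 0.765 to 0.826. For the condensin genes, *Ncapd2* over *Ncaph* gave 4.329 to 5.475 and 4.163 to 4.544, so that this ratio overlapped. These ratios, like those above, were chosen after the values were seen and carry no test. The share of gene pairs whose ratios separate the genotypes was not taken.

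Of the other kinetochore members, *Cenpf*, a large protein of the outer kinetochore, was called higher, with 1629, 1661 and 1477 normalized reads in the WT libraries and 1742, 1685 and 1765 in the N275D libraries and a log2 fold change of 0.12 (SE 0.05, limma adjusted p = 0.0449). That call did not survive in any of the fits without 1 library except that without WT replicate 2, with adjusted p-values from limma of 0.0502 to 0.143, and without WT replicate 3 its log2 fold change was 0.073. *Cenpa*, the histone that marks centromeres, fell slightly (-0.12), and its call was lost without N275D replicate 1 or 2 (adjusted p = 0.0769 and 0.0644 from limma). *Cenpe*, a kinesin that carries chromosomes to the spindle equator, had 3157, 3067 and 2633 normalized reads in WT and 2637, 2737 and 2868 in N275D cells. *Knl1*, the platform for checkpoint proteins, had 1156, 1271 and 990.1 normalized reads in the WT libraries and 1066, 1093 and 1095 in the N275D libraries. In both, WT replicate 3 lay below the N275D libraries and the other WT libraries above them, and neither was called (-0.10 and -0.063, adjusted p = 0.157 and 0.473 from limma). Without WT replicate 3 they were called lower, at -0.18 and -0.16.

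**Figure D3:**
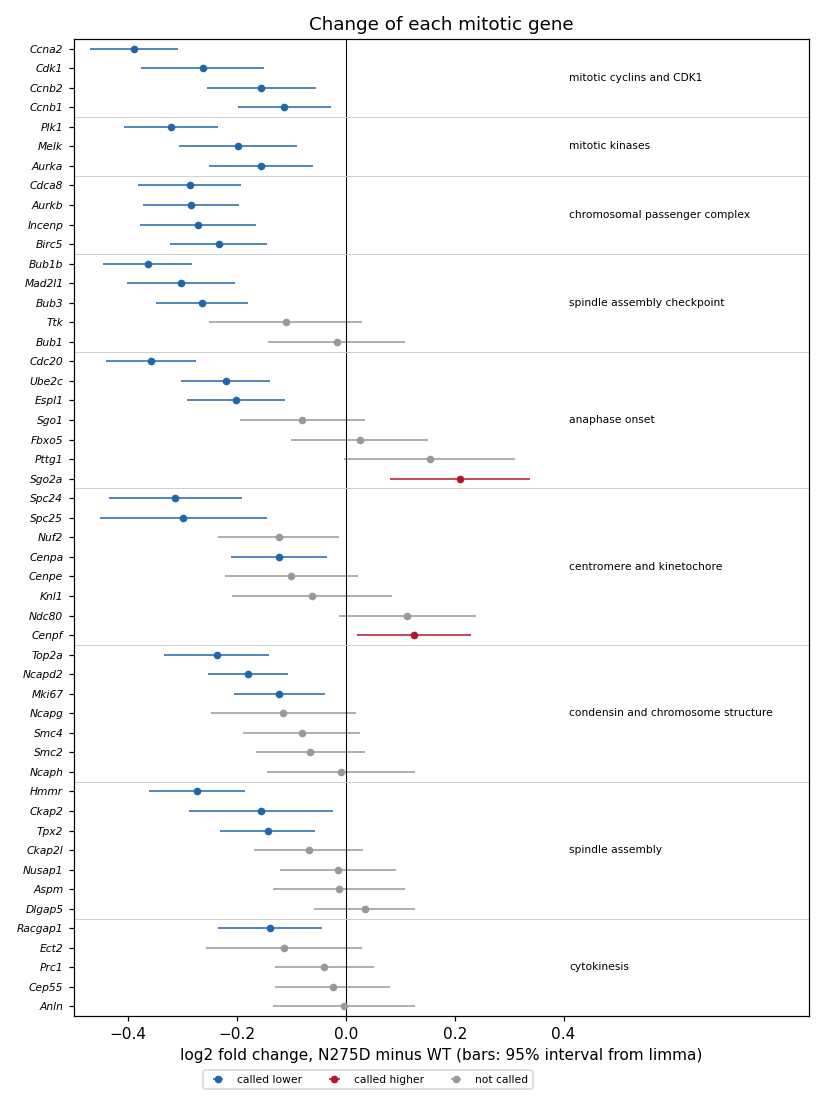
Log2 fold change of each mitotic gene, N275D minus WT, with its 95% interval from limma, by functional group. The 27 genes called lower and the 2 called higher are coloured, and intervals of the other 21 are grey. The cyclin, kinase and passenger groups hold only lower calls, and cytokinesis holds 1.

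Condensin shapes mitotic chromosomes with 2 SMC ATPases and 3 further subunits. Of these 5 genes only *Ncapd2* was called, with a log2 fold change of -0.18. *Smc2* had 4343, 4363 and 3813 normalized reads in WT and 3939, 3999 and 4003 in N275D cells, and *Smc4* had 5033, 5051 and 4334 normalized reads in the WT libraries and 4476, 4469 and 4648 in the N275D libraries. For both ATPases WT replicate 3 was the lowest of all 6 libraries and the other WT libraries were the highest. Their log2 fold changes were -0.065 and -0.081 (adjusted p = 0.263 and 0.194 from limma), and without WT replicate 3 both were called lower at -0.13 and -0.15, but under quantile normalization both lay just above 0. *Ncapg*, with 1827, 1814 and 1496 normalized reads in WT and 1564, 1601 and 1557 in N275D cells, was likewise called lower without that library (-0.21 in place of -0.12). *Ncaph*, the kleisin that closes the ring, had 1597, 1378 and 1279 normalized reads in the WT libraries and 1449.5, 1389 and 1373 in the N275D libraries and an interval from -0.14 to 0.13 on the log2 scale. *Top2a*, the topoisomerase that untangles sister chromatids, had 14574, 14849 and 12968 normalized reads in WT and 11848, 11644 and 12403 in N275D cells, without overlap (log2 fold change -0.24, SE 0.05, limma adjusted p = 0.000402). *Mki67*, the proliferation marker Ki-67 that coats mitotic chromosomes, had the highest mean reads of all members over the 6 libraries, with 13928, 14360.3 and 13091 normalized reads in the WT libraries and 12215, 12650.4 and 13125 in the N275D libraries. Its log2 fold change was -0.12 (adjusted p = 0.016 from limma). The genotypes overlapped, since N275D replicate 3 exceeded WT replicate 3, and the call was lost without WT replicate 1 or 2 or N275D replicate 1 or 2 (adjusted p = 0.0518 to 0.0969 from limma).

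Of 7 spindle assembly genes, 3 fell. *Hmmr*, which encodes a hyaluronan receptor that also acts at spindle poles, had 2699.9, 2865 and 2640.3 normalized reads in WT and 2244, 2247 and 2293 in N275D cells, the largest change of the group (log2 fold change -0.27, SE 0.04, limma adjusted p = 5.13e-05). *Tpx2*, which activates Aurora A and nucleates microtubules near chromosomes, was the most abundant of the group in reads and had 4101, 3975 and 3723 normalized reads in the WT libraries and 3561, 3501 and 3609 in the N275D libraries (log2 fold change -0.14, adjusted p = 0.00819 from limma). Its call was lost without WT replicate 1 (adjusted p = 0.0511 from limma). *Ckap2* was called at -0.16, and its adjusted p from limma was 0.0615 to 0.192 in every fit that left out 1 library except that without WT replicate 3, where the call held. *Aspm*, the spindle pole gene linked to brain size, had 1354, 1449 and 1229.8 normalized reads in WT and 1289.8, 1311 and 1389 in N275D cells. *Nusap1*, a microtubule bundler, had 1549, 1468 and 1378 normalized reads in the WT libraries and 1407, 1448 and 1493 in the N275D libraries. *Dlgap5*, or HURP, had 1698, 1695 and 1592 normalized reads in WT and 1678, 1735 and 1689.7 in N275D cells. *Ckap2l* had 1311, 1386 and 1261 normalized reads in the WT libraries and 1265, 1255 and 1251 in the N275D libraries. None of these 4 was called, and their 95% intervals all lay between -0.17 and 0.13 on the log2 scale.

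Of 5 cytokinesis genes 1 was called. *Racgap1*, a part of centralspindlin at the midzone, had 2449.6, 2548 and 2373 normalized reads in WT and 2210.2, 2346 and 2139 in N275D cells, without overlap (log2 fold change -0.14, adjusted p = 0.017 from limma). The call was lost without WT replicate 2 or N275D replicate 1 or 3 (adjusted p = 0.0627 to 0.0995 from limma). *Anln*, the actin-binding protein of the cleavage furrow, had 566, 577 and 579 normalized reads in the WT libraries and 548, 551 and 621 in the N275D libraries, with N275D replicate 3 as the highest and N275D replicates 1 and 2 as the lowest libraries. *Prc1*, which crosslinks midzone microtubules, had 1681, 1628 and 1588 normalized reads in WT and 1568, 1587 and 1607 in N275D cells. *Cep55*, which brings in the machinery of the final cut, had 1306, 1284 and 1194 normalized reads in the WT libraries and 1283, 1238 and 1199 in the N275D libraries. For *Ect2*, the exchange factor that activates RhoA, the values were 1295, 1359 and 1101 normalized reads in WT and 1087, 1153 and 1221 in N275D cells. Of these 4, *Ect2* alone passed the threshold without WT replicate 3, at -0.20 in place of -0.11. Their 95% intervals ran from -0.26 at the lowest to 0.13 at the highest.

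Summed by group, the reads of the passenger complex changed by -17.1% from the WT to the N275D mean, those of the checkpoint by -16.5%, of cyclins and CDK1 by -15.9%, of the kinases by -15.8% and of anaphase onset by -13.1%. In each of these 5 groups every N275D library lay below every WT library. The change was -10.1% for condensin and chromosome structure, -7.36% for spindle assembly, -5.44% for cytokinesis and -5.33% for the centromere and kinetochore. Among these, spindle assembly and condensin sums did not overlap either, while the cytokinesis and kinetochore sums overlapped through WT replicate 3. Without WT replicate 3 the 4 last values were -12.8%, -9.65%, -7.63% and -8.13%. A group sum is led by its most abundant genes, and differences between groups carry no test.

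**Figure D4:**
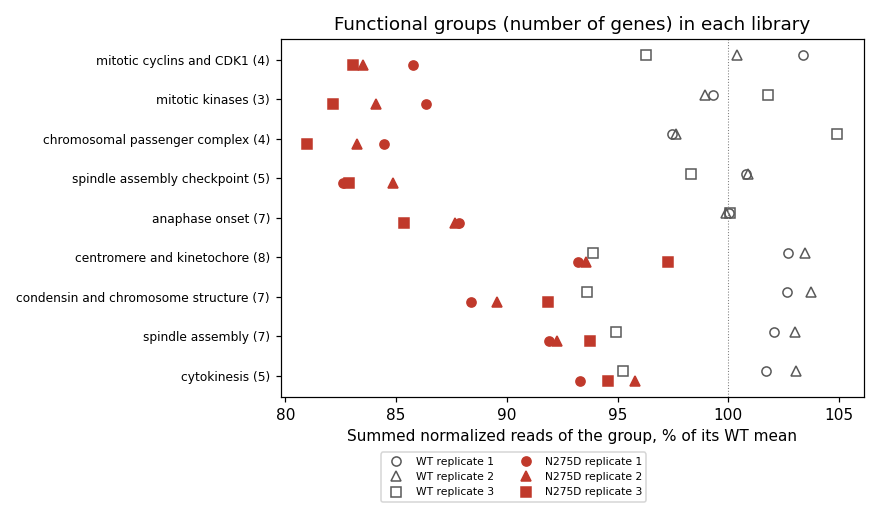
Summed normalized reads of each functional group in each library, in percent of the WT mean of the group, with WT as open and N275D as filled symbols. The N275D sums of cyclins, kinases, passenger complex and checkpoint lie well below every WT sum, and those of the kinetochore and cytokinesis groups overlap with WT replicate 3.

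Other genes of the pathway, from lists beside the members, were called in both directions, and their counts stand against the 26.1% of all genes tested that were called lower and the 24.7% called higher. Regulators of CDK1 held 5 lower and 2 higher calls among 11 genes. *Ccnf*, which encodes cyclin F, fell most (-0.48), and *Mastl*, which restrains the phosphatase that opposes CDK1, rose (0.38). Of 15 genes for MuvB, its partners and the factors that activate mitotic promoters, 7 fell and 2 rose, from *Tfdp1* (-0.39), the partner of E2F factors, to *Lin37* (0.33), a MuvB subunit. *Mybl2*, which encodes B-MYB, and *Foxm1* are activators that join MuvB on CHR promoters. *Mybl2* had 3078, 2965 and 3096 normalized reads in the WT libraries and 2340.0, 2449 and 2339 in the N275D libraries, and *Foxm1* had 1664, 1664 and 1715 normalized reads in WT and 1419, 1471 and 1383 in N275D cells. Both were called lower (-0.36 and -0.24). In both genes all N275D libraries lay below all WT libraries.

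Of 30 further centromere and kinetochore genes, 12 fell and 2 rose, with *Cenpm* (-0.45) and *Cenpp* (0.34), both of the inner kinetochore, at the ends. These counts and those that follow stand against the same 26.1% of all genes tested called lower and 24.7% called higher. Of 16 genes for the APC/C and its partners, 6 fell and 3 rose. *Ube2s*, which extends ubiquitin chains on APC/C substrates, fell most (-0.27), and *Anapc2*, the cullin subunit, rose most (0.16). Cohesin and its regulators held 2 calls among 14 genes, both lower, *Stag1* (-0.15) and *Smc1a* (-0.13). The median of this list was 0.0032, and of 3 condensin II genes only *Ncapg2* was called (-0.16). Among 26 replication and S phase genes 19 fell and 0 rose by limma (0 also at an unadjusted p under 0.05 on the higher side), with a median of -0.24 and the largest fall in *Gins1* (-0.43), a subunit of the replicative helicase complex. The medians of these lists, against -0.0026 for all genes tested, were -0.14 for CDK1 regulators, -0.18 for the MuvB list, -0.13 for centromere and kinetochore genes and -0.058 for the APC/C.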

How the data were processed

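Polyadenylated RNA was sequenced in 3 WT and 3 N275D libraries. By the study's methods, the authors aligned reads to mm10 with STAR and counted them per gene with featureCounts, with no versions given in the sources used here. The labels and the methods name different library kits. The deposited values are a normalized signal, the gene-level reads scaled by 1 library factor each, and all values above 0 were whole multiples of that factor. The authors' deposited log2 fold changes, q-values and group averages are the study's own comparisons and were not used.

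Genes with a mean of at least 10 normalized reads were tested on log2(normalized reads + 1) with limma 3.58.1 (R 4.3.3, trended prior), two-sided, with Benjamini-Hochberg adjustment over all 11908 genes and a threshold of 0.05. No test on counts was run. The fit was tested on simulated data. A log2 fold change is N275D minus WT on that scale. The members and lists were chosen with earlier results of these data known. Values per library are given for the genes with the largest and smallest change and the highest mean of each group, and for each member not called lower. From each other list the gene that changed most in each direction is named, and *Mybl2*, *Foxm1* and *Smc1a* were named after their values were seen. Gene positions and promoters are from RefSeq for GRCm38.p6. Alternatives were other pseudocounts, filters, scalings and priors, a replicate block, a minimum fold and leaving out each library. Reads on genes per library set the counting precision, which does not cover variation between cultures. A check of the mutated gene's own level is not reported here.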

Additional observations from a re-analysis of the deposited data

How the results depend on the processing

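The count of members called lower was 27 with pseudocounts of 0.1 and 10, a minimum mean of 100 or TMM scaling, 26 with every gene above 0 tested, 22 without a prior trend and 21 after quantile normalization. Over all genes tested, 3109 and 3111 of 11908 were called lower with those pseudocounts, and 2914 of 9581 at a minimum mean of 100. Under TMM scaling it was 3159 of 11908, and with every gene above 0 tested 2979 of 16244. Without a prior trend it was 2653 of 11908, and after quantile normalization 3066 of 11908. Members called higher fell to 1 with every gene above 0 tested, under TMM scaling and without a prior trend. In those fits 2907, 2881 and 2670 of all genes tested were called higher. At a minimum of 2-fold, 0 members were lower, 0 higher, and 427 genes were called. Leaving out 1 library gave 22 to 35 members lower, 1 to 2 higher and a median from -0.17 to -0.11, with -0.17 and 35 without WT replicate 3. Of the 11885 to 11933 genes tested in those fits, 2652 to 3298 were called lower and 2490 to 3100 higher. With the replicate number as a block, 25 members were lower and 1 higher, against 2922 and 2805 of 11908 genes tested. *Cenpa*, *Ckap2* and *Cenpf* lost their calls in that fit. Same-numbered libraries showed no shared deviation (correlations of -0.045, 0.041 and -0.083). With 3 libraries per genotype this cannot exclude that they were handled together. After quantile normalization *Bub1* (0.0022), *Smc2* (0.0038), *Smc4* (0.011), *Ncaph* (0.024), *Nusap1* (0.024), *Aspm* (0.014) and *Prc1* (0.0086) crossed 0. Leaving out 1 library moved *Anln* from -0.063 to 0.027, *Aspm* from -0.075 to 0.043, *Bub1* from -0.092 to 0.026, *Cep55* from -0.063 to 0.0011, *Fbxo5* from -0.028 to 0.083, *Knl1* from -0.16 to 0.020, *Ncaph* from -0.080 to 0.080 and *Nusap1* from -0.058 to 0.027. None of these was called in the fit on all libraries, and the cause was not tested. The 2 planned tests on counts were not run, and every fit used the deposited values, which are scaled.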
